A study of Homo sapiens with 2 samples.

Results

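The genes described here build and run the lysosome, the acidic compartment in which cells digest proteins, lipids and sugars, and the autophagy machinery that delivers cytoplasm to it. They are 33 genes in 4 classes: 11 subunits or accessory proteins of the proton pump, 10 lysosomal hydrolases or membrane proteins, 9 autophagy genes and 3 transcription regulators. Their probe sets were all those that the array's annotation gives to exactly 1 of these genes, 86 of the 54675 on the array, and the 33 genes are among 19775 with a probe set of their own. Messenger RNA of C4-2 cells, an androgen receptor-positive human prostate cancer line derived from LNCaP, was measured on Affymetrix arrays 48 h after transfection. One group received miR-99a, a microRNA, and the other si-GL2, a control siRNA named for a luciferase reporter. Each group holds 1 array, both groups carry a transfected RNA, and no untransfected cells were included. All differences below therefore lack a replicate error and a p-value.

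The lysosome is kept acidic by the vacuolar proton pump, in which a cytosolic V1 sector splits ATP and a membrane V0 sector carries protons inward. Many of its genes, together with those of the hydrolases, are known targets of TFEB, TFE3 and MITF, related transcription factors that bind a short palindrome called the CLEAR element. The kinase mTOR, active on the lysosome's surface, is known to phosphorylate TFEB and hold it in the cytoplasm, and to restrain autophagy through ULK1. In prostate cancer cells autophagy is known as a source of nutrients under androgen deprivation.

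The transfected molecule belongs to a family of microRNAs that share a seed, bases 2 to 8, which is what pairs with target messenger RNAs. The mature sequences are shown to identify it, from RefSeq in GRCh38.p14 and with the seed in capitals; the labels do not say which arm was transfected, and the 5p arm is the one usually meant by the name.
hsa-miR-99a-5p: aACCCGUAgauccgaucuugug
hsa-miR-100-5p: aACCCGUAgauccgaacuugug
hsa-miR-99b-5p: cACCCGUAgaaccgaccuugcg
Over their 22 bases, miR-99a-5p and miR-100-5p differed at 1 position and miR-99a-5p and miR-99b-5p at 4, all of them outside the seed. They lie at chr21:16539101-16539122 on the plus strand, at chr11:122152275-122152296 on the minus strand and at chr19:51692618-51692639 on the plus strand. Transcript sequences of the 33 genes were not used here, so seed matches in them were not analysed.

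Promoters are shown for 4 genes because 3 of them were the lowest after miR-99a and LAMP1 holds the most copies of the E-box core. Each is 300 bases, 250 before and 50 after the RefSeq start in GRCh38.p14, read along the gene, with CACGTG, the core of the CLEAR element, in capitals. MCOLN1 lies at chr19:7522374-7522673 on the plus strand, NEU1 at chr6:31862772-31863071 on the minus strand, LAMP1 at chr13:113296989-113297288 on the plus strand and ATP6AP1 at chrX:154428427-154428726 on the plus strand.
MCOLN1: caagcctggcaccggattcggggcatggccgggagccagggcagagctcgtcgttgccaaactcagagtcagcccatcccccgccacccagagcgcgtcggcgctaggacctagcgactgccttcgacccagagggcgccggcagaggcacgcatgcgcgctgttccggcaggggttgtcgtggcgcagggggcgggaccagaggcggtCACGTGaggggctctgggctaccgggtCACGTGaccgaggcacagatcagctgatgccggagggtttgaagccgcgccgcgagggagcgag
NEU1: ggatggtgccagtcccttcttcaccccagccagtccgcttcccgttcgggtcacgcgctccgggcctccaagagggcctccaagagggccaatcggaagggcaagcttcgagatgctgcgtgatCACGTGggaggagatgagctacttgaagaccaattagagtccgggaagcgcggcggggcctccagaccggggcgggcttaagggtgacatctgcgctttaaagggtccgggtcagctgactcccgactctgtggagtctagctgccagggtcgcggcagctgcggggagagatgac
LAMP1: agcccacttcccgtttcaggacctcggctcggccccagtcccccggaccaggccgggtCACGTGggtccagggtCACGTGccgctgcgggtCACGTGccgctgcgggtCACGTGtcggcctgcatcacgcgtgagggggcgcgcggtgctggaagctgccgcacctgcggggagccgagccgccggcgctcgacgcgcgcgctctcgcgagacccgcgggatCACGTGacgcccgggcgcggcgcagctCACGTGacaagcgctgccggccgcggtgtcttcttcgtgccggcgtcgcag
ATP6AP1: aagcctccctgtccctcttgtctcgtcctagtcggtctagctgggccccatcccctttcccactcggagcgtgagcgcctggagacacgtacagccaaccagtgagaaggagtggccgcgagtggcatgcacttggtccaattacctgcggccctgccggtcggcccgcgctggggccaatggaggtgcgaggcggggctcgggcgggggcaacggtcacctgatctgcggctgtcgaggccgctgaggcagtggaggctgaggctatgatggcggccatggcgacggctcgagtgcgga
The core occurs 2 times in MCOLN1, 1 time in NEU1, 6 times in LAMP1 and 0 times in ATP6AP1.

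Over all 54675 probe sets the arrays had similar medians, 47.8 on the miR-99a array and 47.4 on the si-GL2 array. Similar medians do not show that brighter probe sets were scaled alike. Differences are miR-99a minus si-GL2 on the scale log2(signal + 16), where 16 damps the noise of dim probe sets and understates their change. A gene was represented by its brightest probe set and called expressed when that probe set's mean level reached the median of all probe sets, a signal of 47.2. A gene was called lower or higher when it differed by at least 1.5-fold, which is a rule of size. Where 1 gene has 2 expressed probe sets, they disagreed with an SD of 0.18 per probe set, over 5842 genes. That SD serves as the error here, and it leaves out the spread between cultures. All 8 luminal prostate markers measured were expressed, with signals that summed to 31172 with miR-99a and 31243 with si-GL2. Macrophages are rich in lysosomes, but of 9 macrophage markers only CSF1R was expressed, and the 9 summed to 212 with miR-99a and 190 with si-GL2. Of 7 fibroblast markers 5 were expressed, and the 7 summed to 570 with miR-99a and 520 with si-GL2. The level limit is relative, and 12218 of all 19775 genes reached it. It is no detection call, so a marker called expressed is not thereby shown to be present.

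By their brightest probe sets, the 33 genes of this set leaned toward lower levels after miR-99a. They were chosen with earlier results of these data known. All 33 were expressed, and 28 of them (84.8%) lay below 0, where 56.3% of the 12218 expressed genes did. The median difference was -0.16, beside -0.031 over all expressed genes. For 102 further expressed genes of the same classes, described below, it was -0.048, so the size of the lean does not stand for the 4 classes pooled. By class, these further genes had medians of -0.14 (pump, 9 genes), -0.019 (hydrolase or membrane, 51), -0.073 (autophagy, 37) and -0.21 (regulators, 5). In the 33 the medians of these classes were -0.26, -0.094, -0.13 and -0.21. The lean depended on which probe sets were counted. When all probe sets of a gene were averaged, 23 of 33 lay below 0, beside 53.9% of all expressed genes. By the second brightest probe set 13 of 22 did, beside 51.9%, with 0 of them 1.5-fold lower, beside 2.62%. Without the probe sets marked _x_ or _s_, 21 of 23 did, beside 56.6%, and the median was -0.23, beside -0.040. At least 1.5-fold lower were 3 genes, ATP6AP1, NEU1 and MCOLN1, which is 9.09% of the 33 where 2.9% of all expressed genes were called lower. None was 1.5-fold higher (0 of 33), where 1.21% of all expressed genes were called higher. Beyond 1 probe set SD in either direction lay 14 genes, and all 14 were lower. With the SD rounded to 0.18, which takes in ATP6V0D1 at -0.181, 45.5% of the 33 lay at or below -0.18. Of all expressed genes 25.7% did. At or below 0.18 lay 100% of the 33, beside 83.6% of all expressed genes, so many genes outside the set also lay beyond 1 probe set SD. The 30 genes other than ATP6AP1, NEU1 and MCOLN1 differed by less than 1.5-fold. Genes above the 75th percentile of level, among which 28 of the 33 fall, were below 0 in 57.3% and 1.5-fold lower in 2.62%. In bulk RNA, fewer cells of a type and less RNA per cell cannot be told apart.

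**Figure D1:**
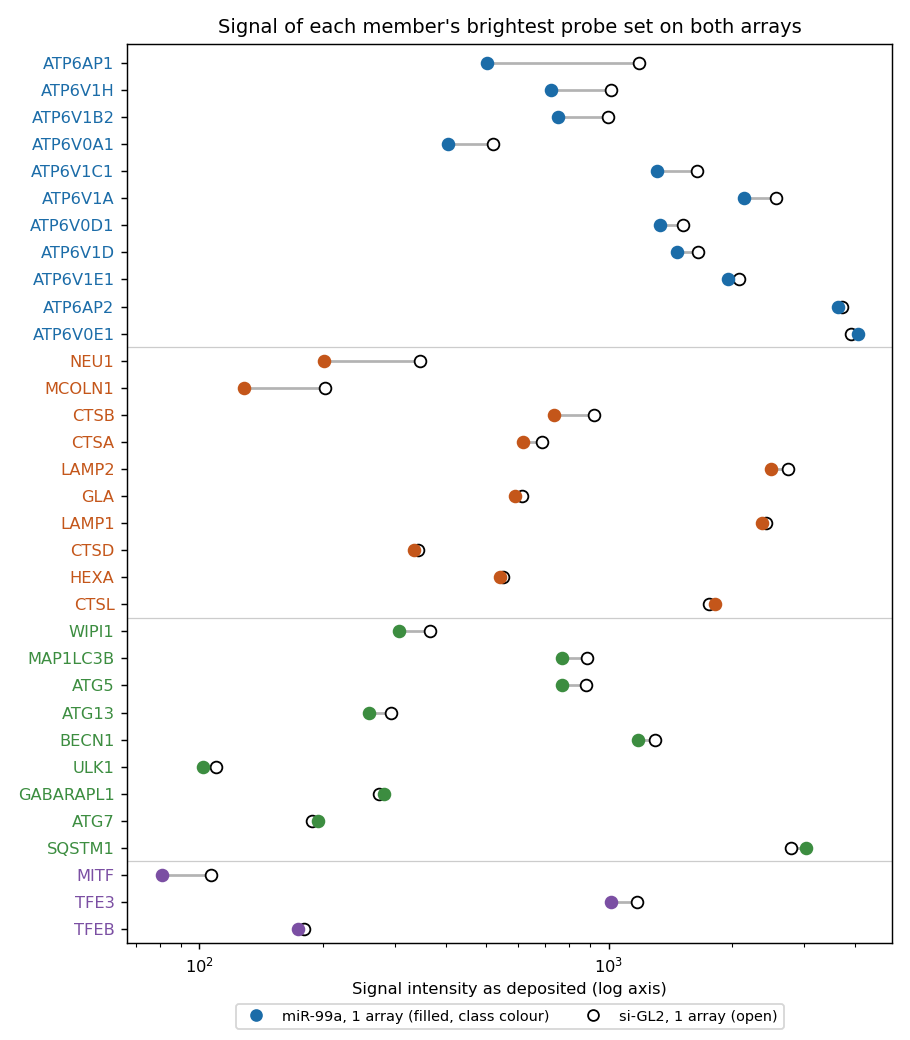
Deposited signal intensity (log axis) of each gene's brightest probe set after miR-99a (filled, 1 array) and si-GL2 (open, 1 array), with genes coloured by class and ordered by difference within it. ATP6AP1 has the widest gap, 504 with miR-99a, against 1184 with si-GL2, and 5 genes have the filled point on the right. Signals of different genes are not comparable, since they come from different probes.

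The proton pump genes had a median of -0.26 over 11 genes, of which 10 (90.9%) lay below 0, beside 56.3% of all expressed genes. By brightest probe sets this was the lowest median of the 4 classes, but by the second brightest it was -0.11 over 7 genes and the hydrolase and membrane genes were lower, at -0.33 over 4. The accessory proteins stood apart from each other. ATP6AP1, which encodes the accessory protein Ac45 that helps assemble and guide the pump, had a signal of 504 with miR-99a, against 1184 with si-GL2, a difference of -1.21 and a ratio of 0.426. It was the lowest of all 33 genes and the 1 gene among them at least 2-fold lower, as 0.336% of all expressed genes were. It has 1 probe set, marked _s_, of a kind whose probes can match several transcripts, and no second probe set checks the value. ATP6AP2, the (pro)renin receptor and the other accessory protein, had 3623 with miR-99a, against 3703 with si-GL2, a difference of -0.031. Its second probe set was at 1749 with miR-99a, against 1738 with si-GL2.

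All 6 genes of the set from the ATP-splitting V1 sector were below 0, with a median of -0.29 and a range from -0.47 to -0.087. This did not hold for V1 genes outside the set. Of those expressed, ATP6V1G1 was at 0.047 and ATP6V1B1 at 0.39, while ATP6V1E2 was at -0.14. ATP6V1H, a regulatory subunit, was lowest at 723 with miR-99a, against 1011 with si-GL2, a difference of -0.47. Its second expressed probe set was at -0.22. ATP6V1B2, the nucleotide-binding B subunit found in most tissues, had 750 with miR-99a, against 998 with si-GL2, or -0.41, by its 1 probe set. Both of these genes lay beyond 1 probe set SD and short of 1.5-fold. ATP6V1C1, a subunit of the stalk that joins the sectors, had 1313 with miR-99a, against 1640 with si-GL2 on its brightest probe set, or -0.32. Its next probe sets were lower still, 451 with miR-99a, against 650 with si-GL2 (-0.51) and 138 with miR-99a, against 227 with si-GL2 (-0.66). The dimmest of the 4 was at 110 with miR-99a, against 101 with si-GL2, or 0.10. ATP6V1C1 was thus past 1.5-fold by 1 of 4 probe sets and below 0 by 3 of them.

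ATP6V1A, the catalytic subunit, had 2143 with miR-99a, against 2562 with si-GL2, or -0.26, and its second probe set was at -0.11. The 4 probe sets of ATP6V1D, a subunit of the rotating central stalk, were all below 0, between -0.24 and -0.0093. ATP6V1E1, of the peripheral stalk, was within 1 probe set SD at 1959 with miR-99a, against 2082 with si-GL2 (-0.087).

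Within the set, genes of the V0 sector were less uniform than those of V1. ATP6V0A1, the large membrane subunit, was at 406 with miR-99a, against 521 with si-GL2, or -0.35, while its dim second probe set was at 82.0 with miR-99a, against 76.8 with si-GL2, or 0.078. ATP6V0D1, which links the sectors, had 1336 with miR-99a, against 1517 with si-GL2, or -0.18. ATP6V0E1, a small membrane subunit, was the 1 pump gene of the set above 0, at 4053 with miR-99a, against 3911 with si-GL2, or 0.051. All 7 of its probe sets lay between -0.14 and 0.16, so none differed by more than 1 probe set SD.

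**Figure D2:**
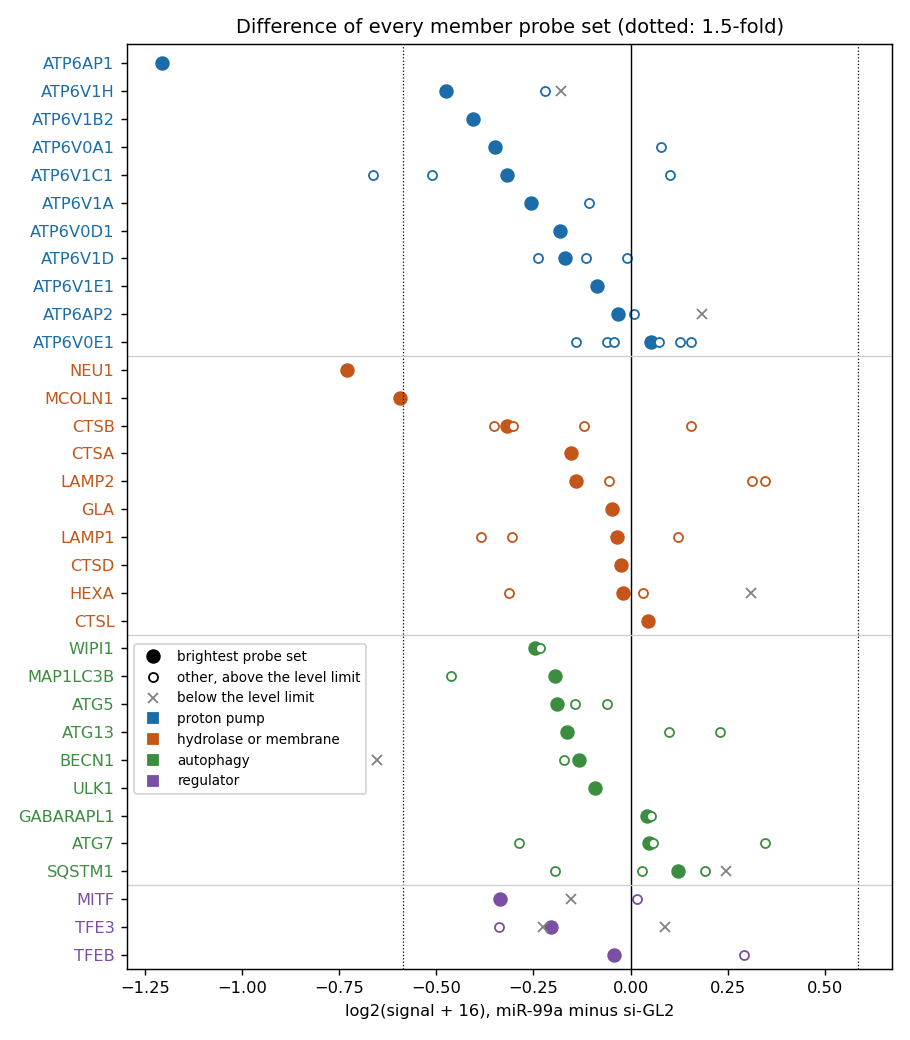
Difference in log2(signal + 16), miR-99a minus si-GL2, for all 86 probe sets by gene; filled points are the brightest probe set, open points other expressed ones and crosses those below the level limit, with dotted lines at 1.5-fold. ATP6AP1 (-1.21), NEU1 (-0.73) and MCOLN1 (-0.59), each with 1 probe set, lie beyond the left line by their brightest probe set, as do an open point of ATP6V1C1 (-0.66) and a cross of BECN1 (-0.65), and 0 points lie beyond the right one.

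Hydrolases and membrane proteins had a median of -0.094 over 10 genes, with 9 (90%) below 0, beside 56.3% of all expressed genes. Past 1.5-fold were 2 of the 10 (20%), both lower, beside 2.9% of all expressed genes. Without _x_ and _s_ probe sets the median was -0.23 over 8 genes. NEU1, the lysosomal sialidase, was 202 with miR-99a, against 345 with si-GL2, a difference of -0.73 and a ratio of 0.584. CTSA, the protective protein that holds NEU1 in a complex and is itself a carboxypeptidase, was 616 with miR-99a, against 687 with si-GL2, or -0.15. NEU1 was thus past 1.5-fold while its partner lay within 1 probe set SD. CTSB, a cysteine protease, was 736 with miR-99a, against 921 with si-GL2, or -0.32. Its next probe sets were at -0.35 and -0.30, and of its dimmest probe sets one was at -0.12 and the other at 0.16. CTSB was therefore lower by its 3 brightest probe sets and did not reach 1.5-fold by any of them.

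The brightest probe sets of the remaining hydrolases differed by less than 1 probe set SD. CTSD, an aspartic protease, was 335 with miR-99a, against 341 with si-GL2 (-0.025). GLA, the alpha-galactosidase that is deficient in Fabry disease, was 591 with miR-99a, against 612 with si-GL2 (-0.049). CTSL, another cysteine protease, was 1816 with miR-99a, against 1758 with si-GL2 (0.046), the 1 gene of this class above 0. HEXA, a subunit of beta-hexosaminidase, was at -0.020 on its brightest probe set, 542 with miR-99a, against 550.4 with si-GL2. Its expressed dimmer probe sets were at -0.31 and 0.031.

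Among membrane proteins, MCOLN1, the calcium channel TRPML1, was 128 with miR-99a, against 202 with si-GL2, a difference of -0.59 and a ratio of 0.635. It lay just past 1.5-fold, which is 0.585 on this scale, by its 1 probe set, and with a pseudocount of 64 (-0.47) or quantile normalization (-0.56) it did not reach it. The nearest gene inside the limit was ATP6V1H at -0.47. LAMP1 and LAMP2 encode the abundant glycoproteins that line the lysosome's membrane. LAMP1 was 2367 with miR-99a, against 2425 with si-GL2 on its brightest probe set (-0.034), but 601 with miR-99a, against 789 with si-GL2 by its second (-0.38). Its other probe sets were at -0.30 and 0.12.

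The probe sets of LAMP2 lay on both sides of 0. The brightest was at 2490 with miR-99a, against 2745 with si-GL2, or -0.14. The second was at 1422 with miR-99a, against 1142 with si-GL2, or 0.31, and the third at 1252 with miR-99a, against 982 with si-GL2, or 0.35. LAMP2 is known to be spliced into isoforms with different ends, and the annotation used here does not say which isoform each probe set reads. As a mean over all its probe sets LAMP2 was at 0.12, so its direction depends on the choice.

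Autophagy genes had a median of -0.13 over 9 genes, with 6 (66.7%) below 0, beside 56.3% of all expressed genes, and 0 past 1.5-fold in either direction. The lowest was WIPI1, which binds the lipid made on forming autophagosomes, at 307 with miR-99a, against 366 with si-GL2, or -0.25, and its second probe set was at -0.23. MAP1LC3B, the LC3 protein that coats autophagosomes, was 770.4 with miR-99a, against 884 with si-GL2, or -0.19. Its second probe set was lower, at 410.2 with miR-99a, against 571 with si-GL2, or -0.46. Of the conjugation enzymes, ATG5 was at 769 with miR-99a, against 880 with si-GL2 (-0.19), with all 3 probe sets below 0. ATG7, the enzyme that activates LC3 and ATG12, was at 195 with miR-99a, against 188 with si-GL2 (0.047), with 4 probe sets between -0.29 and 0.35. By their brightest probe sets WIPI1, MAP1LC3B and ATG5 thus lay beyond 1 probe set SD, and ATG7 did not. The other probe sets of ATG5, at -0.060 and -0.14, were within it. The dimmest probe sets of ATG7, at -0.29 and 0.35, were beyond it on opposite sides of 0.

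Genes of autophagy initiation differed little. ULK1, the kinase that starts autophagosome formation, was 102 with miR-99a, against 110.1 with si-GL2 (-0.092). BECN1, of the lipid kinase complex, was 1178 with miR-99a, against 1294 with si-GL2 (-0.13), with its second expressed probe set at -0.17. ATG13, a partner of ULK1, was at -0.16 on its brightest probe set, and at 0.10 and 0.23 on the others. All of these values except the 0.23 of ATG13 were within 1 probe set SD.

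Among cargo receptors and relatives of LC3, 2 genes lay slightly above 0. SQSTM1, the receptor p62 that is itself degraded by autophagy, was 3030 with miR-99a, against 2783 with si-GL2 (0.12), the highest of the 33. Its other expressed probe sets were between -0.19 and 0.19. GABARAPL1 was 283 with miR-99a, against 274 with si-GL2 (0.042), and its second probe set was at 0.052. A further probe set that the annotation gives to GABARAPL1 and GABARAPL3 together was outside the rule and was at 748 with miR-99a, against 715 with si-GL2 (0.065).

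All 3 regulators were below 0 by their brightest probe sets, and only TFE3 was so by both of its expressed ones. TFE3 was 1012 with miR-99a, against 1169 with si-GL2, or -0.21, and its second probe set was 143 with miR-99a, against 186 with si-GL2, or -0.34. TFEB was 174 with miR-99a, against 180 with si-GL2, or -0.043, and by a probe set of similar brightness 197 with miR-99a, against 158 with si-GL2, or 0.29. MITF was dim, at 81.0 with miR-99a, against 107 with si-GL2 (-0.34), and at 0.018 by its second probe set. The median of the class was -0.21 by the brightest and 0.018 by the second brightest probe sets, so no common direction held over both. MTOR, the kinase that restrains TFEB and ULK1, was 97.9 with miR-99a, against 181 with si-GL2 on its brightest probe set (-0.79), and 40.6 with miR-99a, against 34.0 with si-GL2 by a second one below the level limit.

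Agreement between probe sets limits how firmly a direction can be given per gene. Of the 86 probe sets 78 were expressed, and 53 of these (67.9%) were below 0, where 54% of all 22401 expressed probe sets with 1 gene name were. At least 1.5-fold lower were 4 of the 78 (5.13%, beside 2.76% of all) and 0 were higher (beside 1.53% of all). With 2 or more expressed probe sets were 22 genes, and the 2 brightest were both below 0 in 12 of them (54.5%), beside 38.4% of all such genes. They were both above 0 in 3 genes, beside 29.7% of all such genes, and of opposite sign in 7 (31.8%, beside 31.9%). All expressed probe sets were below 0 in 8 genes, ATP6V1A, ATP6V1D, ATP6V1H, TFE3, ATG5, BECN1, MAP1LC3B and WIPI1. The 11 genes with 1 probe set, among them the 3 past 1.5-fold, could not be checked in this way.

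**Figure D3:**
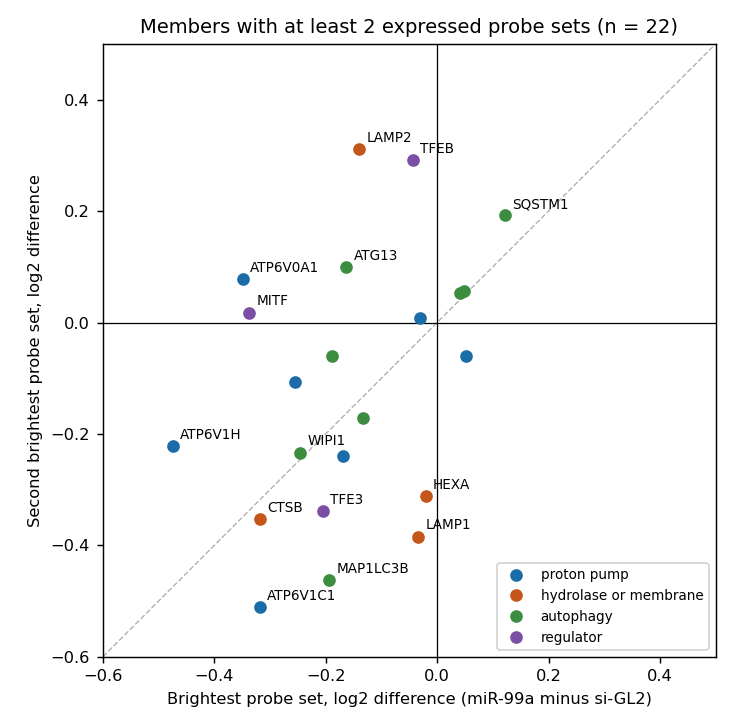
Log2 difference (miR-99a minus si-GL2) of the brightest probe set (x axis) and the second brightest (y axis) for the 22 genes with at least 2 expressed probe sets; the dashed line marks equal values. The area below 0 on both axes holds 12 genes, and LAMP2, TFEB, ATP6V0A1, ATG13 and MITF are among the 7 whose probe sets lie on opposite sides of 0.

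Further genes of the same classes were taken from a wider list, of which 107 genes had a probe set of their own and 102 were expressed. Their median was -0.048, close to the -0.031 of all expressed genes, and 65 (63.7%) lay below 0, beside 56.3% of all expressed genes. At least 1.5-fold lower were 3 of the 102 (2.94%), close to the 2.9% of all expressed genes, and 0 were higher.

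Of the wider list's pump genes, 6 of 9 expressed (66.7%) were below 0, beside 56.3% of all expressed genes, with a median of -0.14. ATP6V0E2 (1687 with miR-99a, against 2148 with si-GL2, -0.35) and TCIRG1, the a3 membrane subunit (179 with miR-99a, against 231 with si-GL2, -0.34), were lowest. ATP6V0C, which forms the proton-carrying ring, was at -0.21 and by its second probe set at -0.32. ATP6V1B1, the B subunit known from kidney, was highest at 88.3 with miR-99a, against 63.8 with si-GL2, or 0.39, followed by ATP6V0D2 at 0.057, which averaged -0.10 over its 3 probe sets. Over both lists 16 of 20 expressed pump genes (80%) were below 0, beside 56.3% of all expressed genes, with a median of -0.17. These were 10 of the 11 chosen with earlier results known and 6 of the 9 further ones. ATP6AP1 was the 1 pump gene past 1.5-fold.

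The wider hydrolase and membrane genes had a median of -0.019 over 51 expressed, with 29 (56.9%) below 0, close to the 56.3% of all expressed genes. The protease gene CTSF was lowest, 431 with miR-99a, against 718 with si-GL2, or -0.71. SLC38A9, the lysosomal arginine sensor upstream of mTOR complex 1, was 196 with miR-99a, against 316 with si-GL2, or -0.65, and -0.41 when its probe sets were averaged. The highest were NPC1, the cholesterol exporter, at 0.49 and the sulfatase GALNS at 0.39, which averaged 0.18 and 0.21 over their probe sets.

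The wider autophagy genes had a median of -0.073 over 37, with 26 (70.3%) below 0, beside 56.3% of all expressed genes. RUBCN, which encodes Rubicon, known to inhibit autophagosome maturation, was lowest at 320 with miR-99a, against 508 with si-GL2, or -0.64, and its second expressed probe set was at -0.41. As a mean over its 5 probe sets RUBCN was at -0.11. The protease gene ATG4C was at -0.52, and ATG2B, a lipid transfer protein, was highest at 0.31, followed by EPG5, a tether for the fusion of autophagosomes with lysosomes, at 0.23. The other expressed probe sets of EPG5 were at -0.014 and -0.074, and its average over all 7 was -0.088, so its direction depends on the choice. Both expressed probe sets of RUBCN were thus lower, and only the brightest reached 1.5-fold.

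Of the wider regulators 5 were expressed, with a median of -0.21 and 0 past 1.5-fold. FLCN, the folliculin that acts with FNIP1 and FNIP2 in signalling from amino acids to TFEB and TFE3, was lowest at 180 with miR-99a, against 254 with si-GL2 (-0.46). FNIP1 was at -0.28 and FNIP2 at -0.21. Averaged over their probe sets, FLCN was at -0.22, FNIP1 at -0.095 and FNIP2 at -0.15. FOXO3 was highest at 0.18 and ZKSCAN3, known as a repressor of lysosomal genes, was at -0.032, or -0.27 when its 4 probe sets were averaged.

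**Figure D4:**
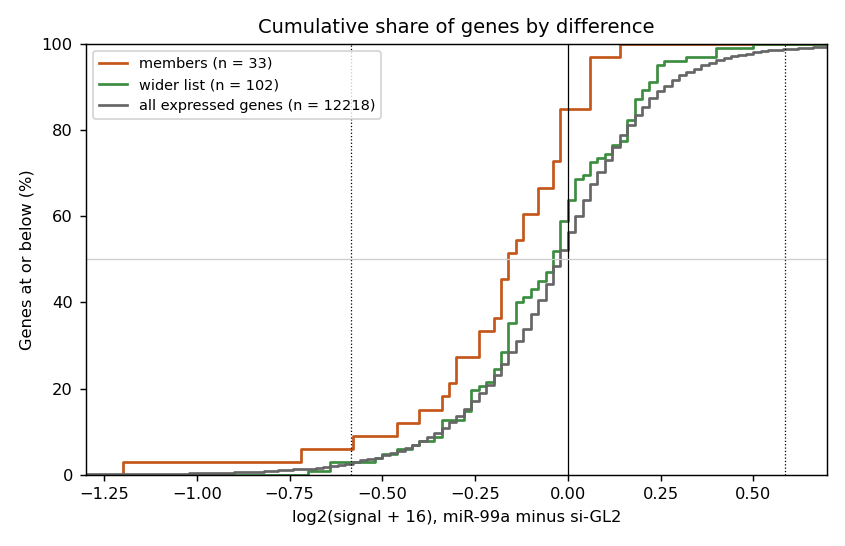
Cumulative percentage of genes at or below each log2 difference (miR-99a minus si-GL2) for the 33 genes described, the 102 expressed genes of the wider list and all 12218 expressed genes, with dotted lines at 1.5-fold. The curve of the 33 crosses 50% at a median of -0.16 and reaches 84.8% at 0, while the wider list, with a median of -0.048, runs near that of all genes.

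Promoter windows were found for 25 of the 33 genes; ATP6V1A, ATP6V1B2, ATP6V1C1, ATP6V1H, ATP6V0E1, CTSB, HEXA and LAMP2 had none in the table. The letters CACGTG, which read the same on both strands, occurred in 6 of the 25 genes (24%), beside 8.77% of 27305 genes with a window. All 25 were expressed, while the 27305 were not limited to expressed genes, so the shares are not of like sets. Among expressed genes with a window 1260 held CACGTG and 8673 did not, and 724 held TCACGTG and 9209 did not. By window the shares were 18.2% of 33 windows beside 7.26% of 35116. The 6 genes were MCOLN1, NEU1, LAMP1, CTSA, CTSD and ATP6V0D1, 5 hydrolase or membrane genes and 1 pump gene. None of the autophagy genes or regulators with a window held it. Longer forms contain the shorter ones. TCACGTG, searched on both strands, was in the same 6 genes (24%, beside 4.49% of all genes), the palindrome TCACGTGA in 4 (16%, beside 1.18%) and that palindrome with G before it and C after it in 1 (4%, beside 0.421%). The last was MCOLN1, in whose window it includes the copy nearer the start.

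All 6 genes with CACGTG were below 0, with a median of -0.17 and values from -0.73 in NEU1 to -0.025 in CTSD. Of the 19 without it 15 were below 0, with a median of -0.13. Whether the genes with and without it differ was not tested. Over all expressed genes with a window the median was -0.032 both in the 1260 with CACGTG and in the 8673 without. For TCACGTG, held by the same 6 genes of the set, the median over all expressed genes was -0.066 in the 724 with it, of which 62.2% lay below 0, and -0.029 in the 9209 without, of which 56.1% did. By its brightest probe set LAMP1, with 6 copies, was at -0.034, and ATP6AP1, with 0, was the lowest gene, so the number of copies did not order the differences. A match describes the sequence and does not show binding.

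**Figure D5:**
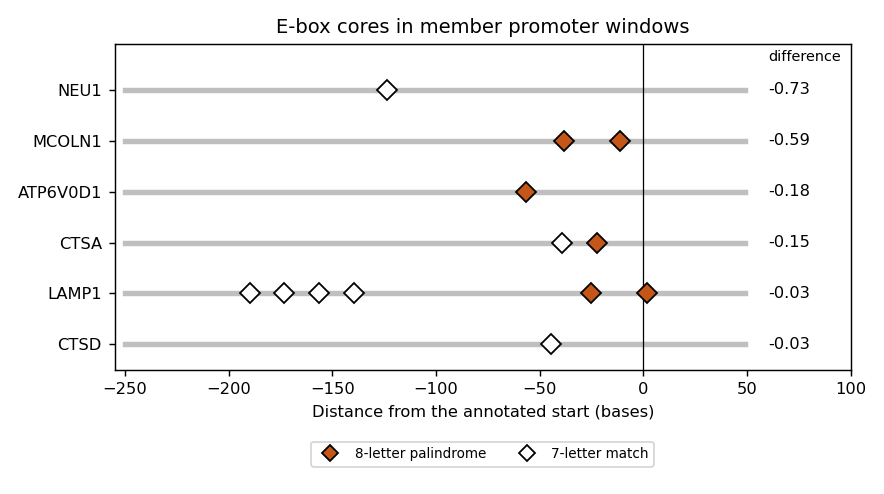
Position of CACGTG in the promoter windows of the 6 genes that hold it, in bases from the annotated start, with each gene's log2 difference (miR-99a minus si-GL2) at the right. Filled diamonds are part of the palindrome TCACGTGA and open ones of TCACGTG on one strand alone; LAMP1 has 6 copies and a difference of -0.034, and NEU1 1 copy and -0.73.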

How the data were processed

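Total RNA of 2 transfected samples was extracted with Trizol, biotin-labelled and hybridised as Affymetrix prescribes, according to the labels. On each array the authors deposited a linear signal intensity for every probe set; how probes were summarised and arrays scaled is not given in the sources used here. The array medians differed by 0.0093 on the log2 scale computed here, so the deposited intensity values were not rescaled. Names came from the platform annotation: 41091 of 54675 probe sets carried 1 gene name, and those with several names or none were left out. All 33 symbols were found in a GRCh38.p14 RefSeq table, and sequences were credited to RefSeq in that build. Of 19775 genes 12218 were expressed. The number of arrays, 1 per group, limits the precision, and no test was possible. Genes named from the wider list are the 2 lowest and 2 highest per class and those past 1.5-fold. ATP6V0C, ATP6V1G1, ATP6V1E2 and FNIP2 were added after their values were seen. The genes and lists were chosen with earlier results of these data known. The code was run on simulated data with planted 2-fold changes and noise smaller than the probe set SD. That run checks the code alone. It cannot show whether the 1.5-fold rule or the choice of probe set suits these arrays. Alternatives were pseudocounts of 1 and 64, median centring, quantile normalization, no level limit or the 75th percentile, the mean over probe sets, the second brightest probe set, dropping the _x_ and _s_ probe sets, a 2-fold rule, and TCACGTG for the promoter letters. Python 3.11.15, numpy 2.4.6, pandas 2.3.3 and matplotlib 3.10.9 were used.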

Additional observations from a re-analysis of the deposited data

How the results depend on the processing

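The median over the 33 genes stayed below 0 under the 9 alternatives that recomputed it, between -0.23 and -0.084, and 0 of the genes with a value were 1.5-fold higher under any of 10. The proton pump's median lay between -0.27 and -0.11 and that of autophagy between -0.16 and -0.0039. With the second brightest probe set, which exists for 22 genes, 13 were below 0 (beside 51.9% of all such genes) and 0 were 1.5-fold lower (beside 2.62%), the pump median over 7 genes was -0.11, the hydrolase and membrane median over 4 genes was -0.33, the regulator median was 0.018, and 0 genes of the wider list were 1.5-fold lower. Leaving out _x_ and _s_ probe sets kept 23 genes, of which 1, NEU1, was 1.5-fold lower (beside 3.43% of all expressed genes), because ATP6AP1 and MCOLN1 are read by _s_ probe sets. At 2-fold 1 of the 33 and 0 of the wider list were lower, beside 0.336% of all expressed genes. With a pseudocount of 64, and as means over all probe sets, 1 gene of the wider list was 1.5-fold lower in place of 3. ATP6AP1 lay between -1.23 and -1.14 under 7 alternatives and NEU1 between -0.77 and -0.62 under 8, all past 1.5-fold, while MCOLN1 lay between -0.65 and -0.47 under 6. Each of these genes has 1 probe set, so the level limits and the choice or mean of probe sets could not change its value. Only the pseudocounts, median centring and quantile normalization could, and the other alternatives do not check these values. Quantile normalization left 24 of 33 genes below 0, in place of 28, beside 51.5% of all expressed genes, in place of 56.3%. Of the 78 expressed probe sets, 2 were 1.5-fold lower with a pseudocount of 64 in place of 4. Leaving out a replicate was not possible with 1 array per group. No paired analysis was possible because each group holds 1 array. The cause of these changes was not tested where the alternative's own construction does not show it.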

Other observations

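The 4 genes of the set that lie on chromosome 8, ATP6V1B2, ATP6V1C1, ATP6V1H and CTSB, were all lower after miR-99a by their brightest probe sets, between -0.47 and -0.32 on the log2 scale. The 431 expressed genes of that chromosome had a median of -0.041. This grouping was chosen after the values were seen and was not tested.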
